A study of Rattus norvegicus with 5 samples.

Results

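Tsc22d3, Fkbp5, Sgk1, Tat, Tdo2, Hsd11b1, Lcn2, Glul and Cps1 are liver genes known to be induced by glucocorticoids. They were chosen by name and not by a threshold on a measured value, but with earlier results of these data known. The arrays carried 14 probes for these 9 genes among 41012 probes for 35655 genes or transcripts. The cells were Fao, an established and well differentiated rat hepatoma line. They were grown in RPMI medium with fetal bovine serum, starved for 16 h while a synthetic glucocorticoid, 10 nM dexamethasone, was present, and stimulated with 10 nM insulin. Total RNA was measured at 0, 15, 30, 45 and 60 min on Agilent 1-colour arrays with Cy3 label, 1 array per time. The 0 min cells had therefore had dexamethasone as well, and neither dexamethasone-free cells nor a time-matched control lacking insulin was analysed here.

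Glucocorticoids bind the glucocorticoid receptor, which is held by chaperones in the cytoplasm until the hormone arrives and then acts on DNA in the nucleus. In the liver the receptor raises enzymes of amino acid breakdown, nitrogen disposal and glucose production. Insulin opposes much of this programme, and some of the same genes respond to both hormones. Among the 9 genes, Tsc22d3 (GILZ) and Fkbp5 code for regulators that limit inflammatory or receptor signalling, and Sgk1 codes for a protein kinase that acts downstream of insulin. Tat and Tdo2 code for enzymes that start the breakdown of tyrosine and tryptophan, and Hsd11b1 for an enzyme that regenerates active glucocorticoid. Lcn2 codes for lipocalin 2, a secreted acute phase protein that binds iron-carrying siderophores. Glul and Cps1 code for glutamine synthetase and for carbamoyl-phosphate synthetase 1, the first enzyme of the urea cycle.

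The probes lie within the rat rn4 assembly, as the array design gives it, where it gives a position; whether a probe lies in coding sequence or a UTR was not determined. The promoters below come from RefSeq on GRCr8, and each window runs from 250 bases before to 50 bases after an annotated start. The table listed 13 such windows for 8 of the 9 genes. They are shown because the glucocorticoid receptor binds DNA through paired short motifs, and the 2 windows printed whole belong to the genes with the steepest slopes over the hour. Letter patterns were searched on both strands. The half-site AGAACA or TGTTCT was in 0 of 13 windows, against 20.7% of the 33469 rat promoters of the same length. The looser core ACANNNTGT, which contains parts of both half-sites and can overlap them, was in 5 of 13 windows, 1 each of 5 genes, against 6.86% of all promoters. AGAACA and TGTTCT separated by 3 bases was in 0 of 13 windows, against 0.0149% of all promoters. A match is only a match of letters. Tsc22d3 and Glul also have other listed starts, whose windows hold no core. Of the Tsc22d3 windows, only that with the core is printed. Which start belongs to the RNA that the probes measured was not determined. In the sequences, written 5′ to 3′ along the gene, capitals mark the core, whose first base lies 131 bases before the window's start in Lcn2 and 183 in Tsc22d3, where start means the annotated start of that window.
Lcn2, chr3:36081731-36082030, minus strand: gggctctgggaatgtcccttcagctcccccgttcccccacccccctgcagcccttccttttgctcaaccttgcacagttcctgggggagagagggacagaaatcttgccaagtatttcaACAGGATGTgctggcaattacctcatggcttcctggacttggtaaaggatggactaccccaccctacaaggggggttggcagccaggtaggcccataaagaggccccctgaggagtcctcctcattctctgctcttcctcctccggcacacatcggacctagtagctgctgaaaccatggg
Tsc22d3, chrX:109065381-109065680, minus strand: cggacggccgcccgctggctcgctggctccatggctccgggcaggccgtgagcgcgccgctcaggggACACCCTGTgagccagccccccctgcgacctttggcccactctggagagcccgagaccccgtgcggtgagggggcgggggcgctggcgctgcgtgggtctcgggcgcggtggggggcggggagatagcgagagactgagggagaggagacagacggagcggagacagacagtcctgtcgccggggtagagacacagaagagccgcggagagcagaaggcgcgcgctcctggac
In the 3 other genes the core began 172 bases before the start in Tdo2, 63 in Glul and 233 in Cps1, and it is shown with its neighbouring bases.
Tdo2, within chr2:169585537-169585836, minus strand: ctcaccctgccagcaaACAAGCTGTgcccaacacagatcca
Glul, within chr13:68519250-68519549, plus strand: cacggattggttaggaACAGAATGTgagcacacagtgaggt
Cps1, within chr9:76063613-76063912, plus strand: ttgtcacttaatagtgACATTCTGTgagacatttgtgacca
The 5 genes with a core did not share a course over the hour. Lcn2 was higher at 45 and 60 min, Tsc22d3, Glul and Cps1 stayed within 1.5-fold on the scale described next, and Tdo2 was not measured above background.

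Levels are given as the log2 of the ratio between a probe's processed signal and its array's 75th percentile, so that 0 is the signal of that percentile. A change is the difference between a later array and the 0 min array on this scale, and it is given where the probe was well above background on both. Levels of different probes depend on each probe's sequence and are not compared. With 1 array per time, no change at a single time has a p-value. The scanner software's own error gave a change a median SD of 0.204 over the member probes, and repeated spots of 141 to 151 probes per array gave 0.184 to 0.196. Neither contains the spread between cultures. Changes are called where they reach 1.5-fold, and in bulk RNA fewer cells of a type and less RNA per cell cannot be told apart.

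Per array, 50.87% to 56.45% of 43379 spots other than controls passed the well-above-background flag, and none was saturated. The arrays of 0 to 45 min shared a slide, whereas the 60 min array lay on another slide. Slide and time cannot be told apart at 60 min, and positions within the first slide were not determined. The 75th percentile was 479.3 at 60 min, and between 253.5 and 300.2 on the other arrays. Added control transcripts, 8 of which were detected, read 0.17, 0.14, 0.22 and 0.24 log2 units above 0 min at 15, 30, 45 and 60 min. Scaled on them instead, every change is lower by that amount, and this flips the sign of several small rises, as given below. Of 8 hepatocyte markers, 7 were well above background on every array, and Apoh on none. Of 12 markers of other liver cells, 4 were well above background on all arrays and 6 on none. No hepatocyte marker reached 1.5-fold at any time.

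Lcn2 was the member that changed most. Its level was 0.31 at 0 min, −0.25 at 15 min, 0.79 at 30 min, 1.47 at 45 min and 1.84 at 60 min, with processed signals of 372, 224, 439.2, 707.4 and 1711. The level was lowest at 15 min and higher at each later time than at the time before. Against 0 min, Lcn2 was 1.48-fold lower at 15 min, then 1.40-fold, 2.24-fold and 2.88-fold higher at 30, 45 and 60 min. Against the 15 min array it was 2.06-fold, 3.31-fold and 4.25-fold higher. Its log2 changes at 45 and 60 min, 1.16 and 1.53, were several times the scanner SD. Of the probes measured, 0.206% had a higher change at 45 min and 0.114% at 60 min. At 30 min 2.05% did, and at 15 min Lcn2 ranked 20193 from the top of 20400. The Lcn2 probe lies on the minus strand of chromosome 3 at 11511592 to 11511651, and it is the only probe for the gene.

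**Figure D1:**
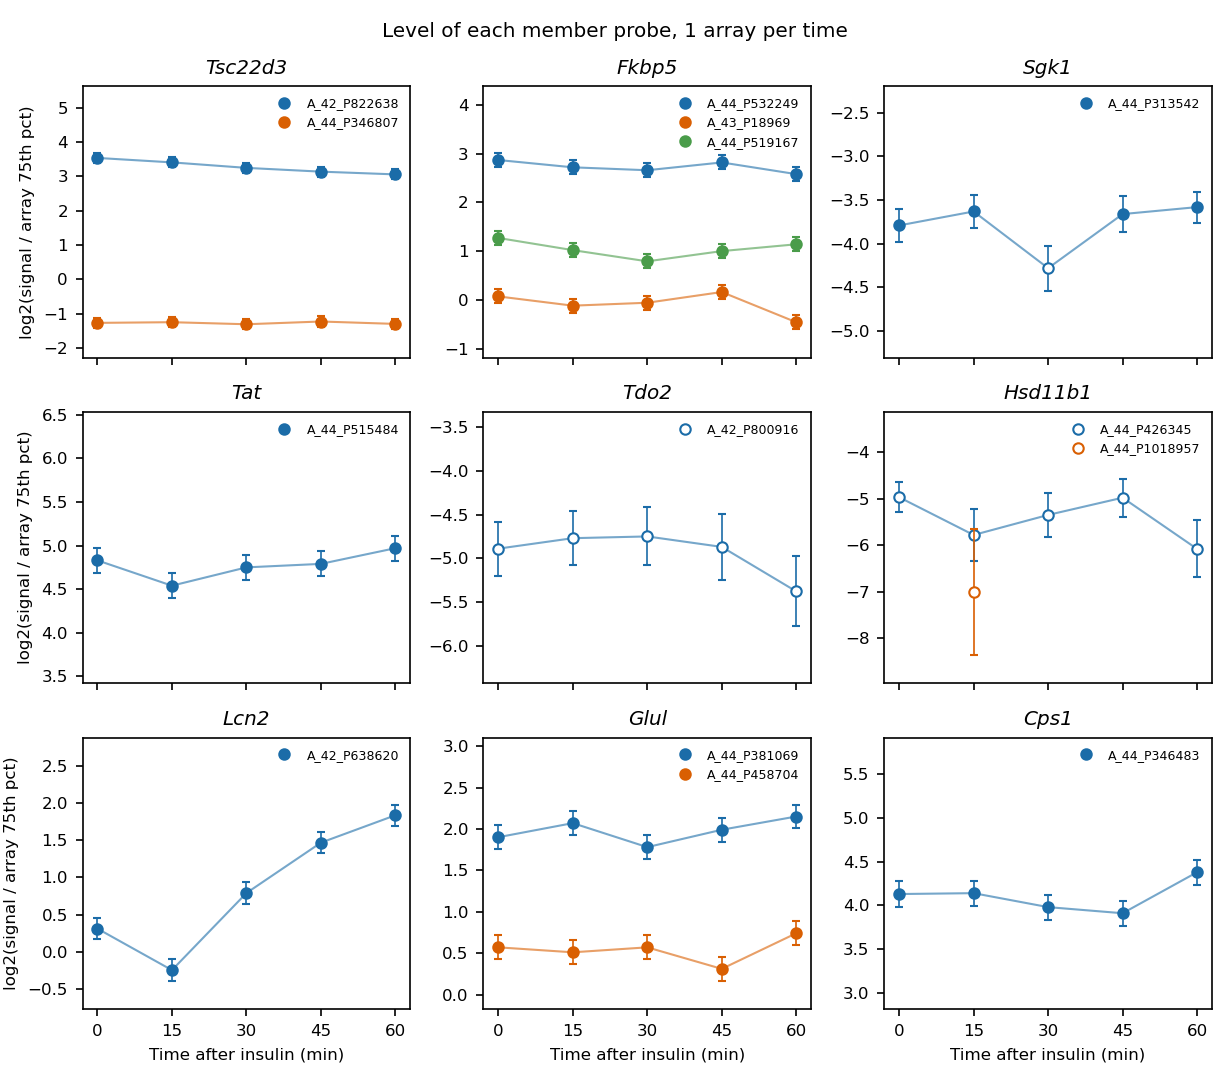
Levels of the 14 member probes on the y axis (log2 of signal over the array's 75th percentile) against time after insulin in min on the x axis, with 1 array per time; bars are the scanner software's error, hollow points were not well above background, and a probe without a positive signal has no point. Lcn2 is lowest at 15 min (−0.25) and highest at 60 min (1.84), while the brighter Tsc22d3 probe is lower at each time than at the one before and reads 3.06 at 60 min.

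On its brighter probe Tsc22d3 was lower at each time than at the time before. The level was 3.54 at 0 min, 3.41 at 15 min, 3.25 at 30 min, 3.14 at 45 min and 3.06 at 60 min. The steps were −0.13, −0.16, −0.11 and −0.09 log2 units, each smaller than the scanner SD of 0.204. The sum of these steps made it 1.39-fold lower at 60 min than at 0 min, below the 1.5-fold threshold. Scaled on added transcripts the log2 changes at 45 and 60 min were −0.61 and −0.72, past it. The dimmer probe, 1313 bases away on the same strand of chromosome X, did not show this course. Its levels were −1.27, −1.25, −1.31, −1.23 and −1.30 at 0, 15, 30, 45 and 60 min, with log2 changes between −0.05 and 0.03. The brighter probe lies at 128336564 to 128336623 and the dimmer at 128337877 to 128337936, on the minus strand. The transcripts that each probe detects were not determined.

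Fkbp5, a co-chaperone that lowers the receptor's affinity for hormone, was read by 3 probes on chromosome 20. The brightest, at 6637600 to 6637659, had levels of 2.87, 2.72, 2.66, 2.82 and 2.58 at 0, 15, 30, 45 and 60 min. The probe at 6638283 to 6638342 had levels of 1.27, 1.02, 0.79, 1.0 and 1.14 at the same times. The probe at 6647361 to 6647420 had levels of 0.07, −0.12, −0.06, 0.16 and −0.46. All 3 were below their 0 min level at 15, 30 and 60 min, and in all 11 of 12 probe values were below it. Of all probes measured, between 43.7% (15 min) and 47.3% (60 min) were below theirs. Scaled on added transcripts, which lowers every change, 12 of 12 were. All these changes share the same 0 min array. The log2 changes at 60 min were −0.29, −0.13 and −0.52 in this order of probes. None reached 1.5-fold on this scale. Scaled on added transcripts, the probe at 6638283 to 6638342 had −0.61 at 30 min and that at 6647361 to 6647420 had −0.76 at 60 min, both past 1.5-fold lower. The probes share the RNA of each array, so they are not replicates.

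Sgk1, listed on the array as Sgk, was close to the detection limit. Its level was −3.79 at 0 min, −3.63 at 15 min, −4.28 at 30 min, −3.66 at 45 min and −3.58 at 60 min, and the 30 min value was not well above background. The log2 changes at 15, 45 and 60 min were 0.16, 0.13 and 0.21, with scanner SDs of 0.268, 0.282 and 0.259. Each is smaller than its error, and scaled on added transcripts they were −0.02, −0.10 and −0.03. That 30 min signal read 1.4-fold lower than at 0 min, with a scanner SD of 0.32 log2 units, and no change is called from it. The Sgk1 probe lies on the minus strand of chromosome 1 at 23501718 to 23501777. Its relative Sgk2 had log2 changes of 0.07, 0.29, −0.01 and −0.29 at 15, 30, 45 and 60 min, and Sgk3 was on no array well above background.

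Of the amino acid enzymes, Tat stayed within 1.5-fold of its 0 min level. Its level was 4.83 at 0 min, 4.54 at 15 min, 4.75 at 30 min, 4.79 at 45 min and 4.97 at 60 min. The lowest value was at 15 min, a log2 change of −0.29, and the 60 min change was 0.13, or −0.10 when scaled on added transcripts. The Tat probe lies on the plus strand of chromosome 19 at 39863848 to 39863907. Tdo2 was not well above background on any array, with processed signals of 10.13, 9.802, 9.395, 8.709 and 11.49 at 0, 15, 30, 45 and 60 min, so no fold is given. Hsd11b1 was likewise not well above background on any array. The probe at 109063878 to 109063937 of chromosome 13 had processed signals of 4.864 to 9.564, and that at 109063624 to 109063683 between −1.554 and 2.085. A signal below background does not show that the transcript was absent.

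Glul was read by 2 probes without a listed position. The brighter had levels of 1.90, 2.07, 1.78, 1.99 and 2.15 at 0, 15, 30, 45 and 60 min. The dimmer had levels of 0.57, 0.51, 0.57, 0.31 and 0.74. At 60 min both were highest, with log2 changes of 0.25 and 0.17, or 0.01 and −0.07 when scaled on added transcripts. At 15 and 45 min the 2 probes had changes of opposite sign, all below 0.27 in size. Cps1 had levels of 4.13, 4.14, 3.98, 3.91 and 4.38, lowest at 45 min and highest at 60 min, and the largest log2 change was 0.26. Scaled on added transcripts, the Cps1 change was −0.44 at 45 min and 0.02 at 60 min. The Cps1 probe is listed over an interval of 1329 bases on chromosome 9, from 66002449 to 66003777, where the other listed probes span 60 bases.

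Over the genes, the count past 1.5-fold was small and belonged to Lcn2. At 15 min, 0 of 7 measured genes were 1.5-fold higher or lower, against 1.06% and 0.936% of 20400 probes. At 30 min it was 0 of 6 in either direction, against 1.15% and 0.898% of 20258 probes. At 45 min 1 of 7 was higher and 0 lower, against 1.72% and 1.05% of 20356 probes. At 60 min 1 of 7 was again higher and 0 lower, against 3.4% and 3.61% of 21042 probes. The median log2 change of the genes was −0.13, −0.14, −0.04 and 0.21 at the 4 times, where that of all probes was 0.03, 0.02, 0.02 and 0.02 with an SD of 0.226, 0.234, 0.25 and 0.34. Without Lcn2 the 39 probe values ranged from −0.52 to 0.26, so that none of these measured values reached 1.5-fold. They leave out Tdo2 and Hsd11b1, and Sgk1 at 30 min, where its signal was not well above background and does not exclude 1.5-fold.

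**Figure D2:**
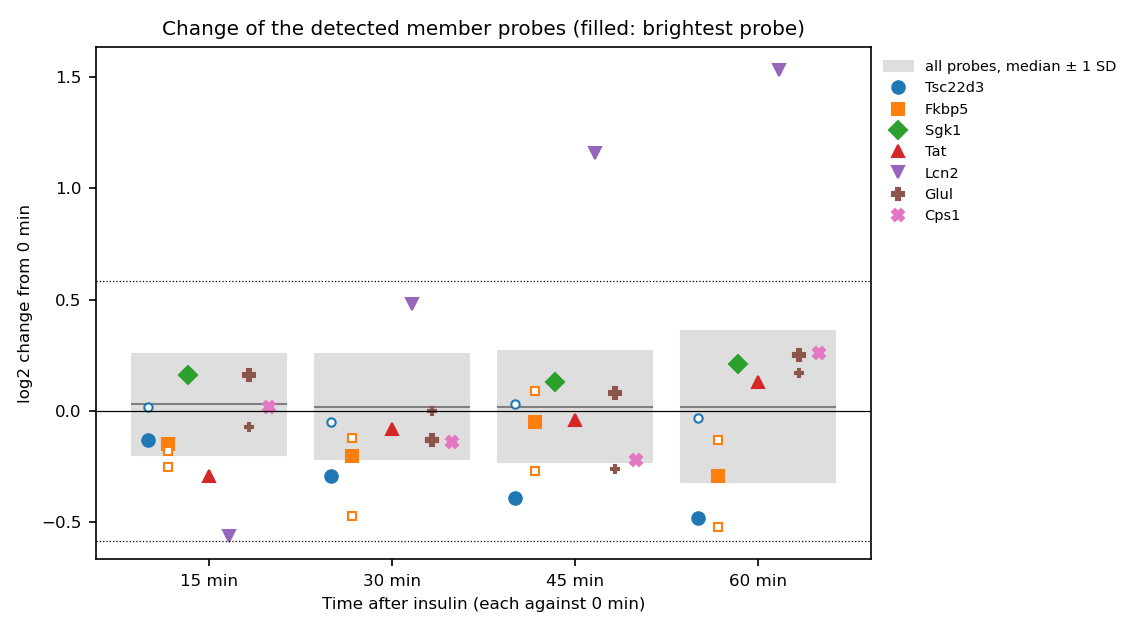
Log2 change from 0 min (y axis) at 15, 30, 45 and 60 min after insulin (x axis) of the 11 member probes measured on both arrays at most times; filled symbols are the brightest probe of a gene, the grey box is the median of all probes ± 1 SD and the dotted lines are 1.5-fold. Lcn2 leaves the dotted band at 45 min (1.16) and 60 min (1.53), after −0.56 at 15 min and 0.48 at 30 min. The measured values of the other genes lie between −0.52 and 0.26.

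The trend over the hour was tested with limma's slope on time over 19746 probes well above background on all 5 arrays, adjusted by Benjamini and Hochberg's method. Of these, 0.0101% passed the adjusted threshold and 10.2% had an unadjusted p under 0.05. Of 10 member probes, 0 passed the adjusted threshold and 2 had an unadjusted p under 0.05. Lcn2 had a slope of 1.91 ± 0.37 log2 units per h (SE), with an adjusted p of 0.167 in limma. The brighter Tsc22d3 probe had −0.49 ± 0.14, with an adjusted p of 0.309 in limma. Without the 0 min array, over which Lcn2 was higher at each step, its slope was 2.78 ± 0.30 and the adjusted p in limma was 0.0302; in that fit 29 of 19746 probes passed, against 2 with all arrays. Without the 15, 30 or 45 min array the slope was 1.56, 1.91 and 1.82, with adjusted p in limma of 0.169, 0.204 and 0.278. On slide 1 alone the slopes were 1.81 ± 0.58 for Lcn2 and −0.53 ± 0.15 for Tsc22d3, with adjusted p of 0.482 and 0.463 in limma.

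The genes Tgm1 and Mt1 followed Lcn2 most closely among 8792 genes with a symbol, by root mean square difference in log2 change over the 4 times. Tgm1, a transglutaminase, differed by 0.25 and had log2 changes of −0.33, 0.27, 1.20 and 1.14 at 15, 30, 45 and 60 min. Mt1, a metallothionein that binds zinc and copper and is itself induced by glucocorticoids, differed by 0.26 and had changes of −0.84, 0.64, 1.55 and 1.40. Both were lower than 0 min at 15 min and higher from 30 min, as Lcn2 was. A second Mt1 probe had changes of −0.71, 0.54, 0.93 and −0.02, so the 60 min value depends on the probe. Tsc22d1, a relative of Tsc22d3 that is no member, had changes of −0.50, 0.04, 0.40 and 0.73, where Tsc22d3 had −0.13, −0.29, −0.39 and −0.48.

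**Figure D3:**
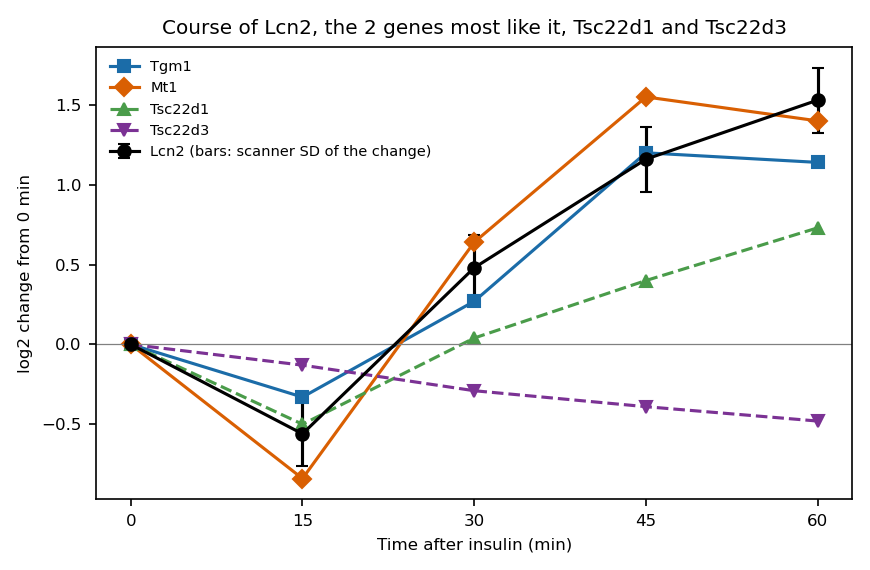
Log2 change from 0 min (y axis) against time after insulin in min (x axis) for Lcn2, with bars for the scanner SD of the change, for Tgm1 and Mt1, the 2 genes most like it, and for Tsc22d1 and the brighter Tsc22d3 probe. The first 4 fall below 0 at 15 min and lie above it from 30 min, whereas Tsc22d3 is below 0 at every time and reaches −0.48 at 60 min.

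Other glucocorticoid-induced genes did not move as a group in 1 direction. Of 18 listed, 15 or 16 were measured at each time, with median log2 changes of −0.08, 0.03, 0.13 and 0.16 at 15, 30, 45 and 60 min. At 60 min 3 of 16 were 1.5-fold higher and 4 lower, against 3.4% and 3.61% of all probes. The list was chosen with earlier results of these data known, so these counts are only a description. Higher at 60 min were Mt1, Per1, a clock gene (0.75), and Cebpb, a C/EBP family transcription factor (0.66). Lower at 60 min were Angptl4, an inhibitor of lipoprotein lipase (−1.09), Dusp1, a MAP kinase phosphatase (−0.93), Pdk4, a kinase that restrains pyruvate dehydrogenase (−0.71), and Anxa1, an anti-inflammatory protein (−0.66). Pdk4 was close to the detection limit, at −4.05 at 0 min and −4.76 at 60 min, and was well above background on only 3 arrays. The other Anxa1 probe was well above background on no array. At 15 min 1 gene was higher and 1 lower, at 30 min 1 higher and none lower, and at 45 min 1 higher and 1 lower. Dusp1 accounted for the higher gene at 15 min with 0.84 and the lower gene at 45 min with −0.69, and Mt1 for the others.

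**Figure D4:**
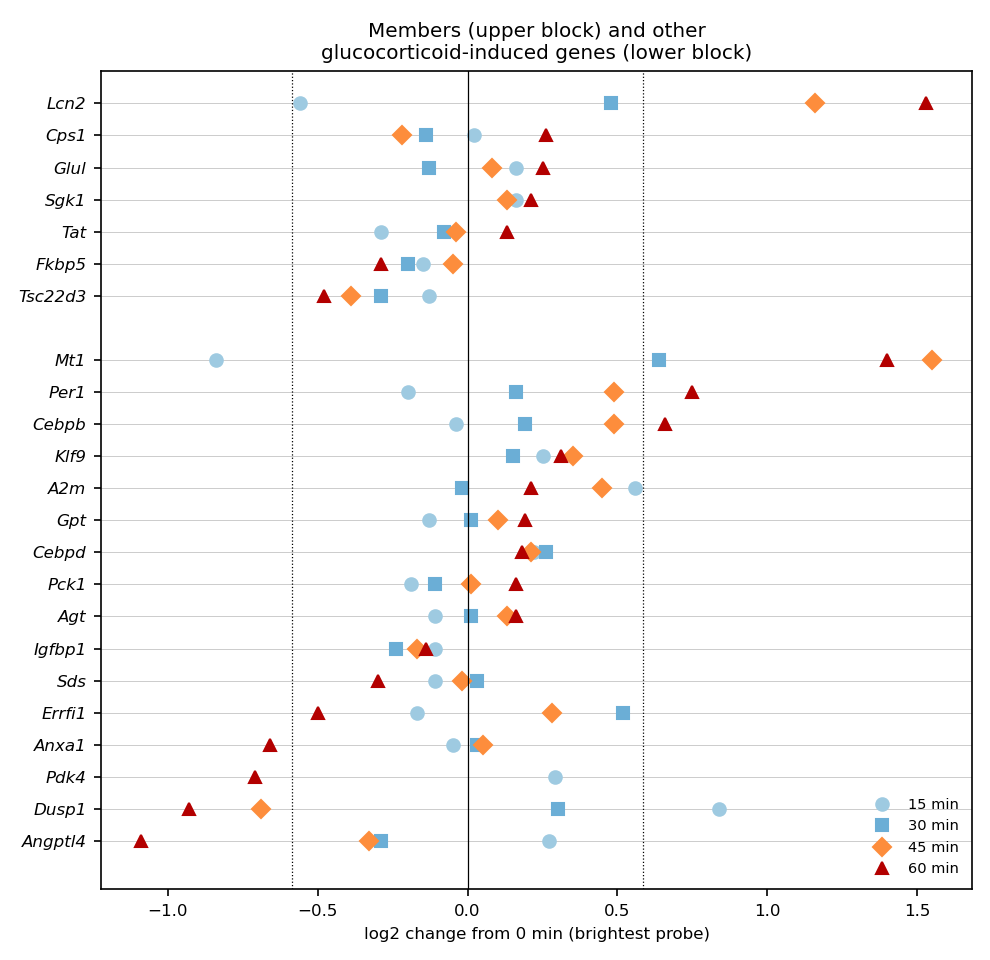
Log2 change from 0 min on the x axis, for the brightest probe of each member (upper block) and of the other glucocorticoid-induced genes (lower block, y axis), at 15, 30, 45 and 60 min; dotted lines are 1.5-fold. Mt1 and Lcn2 lie furthest right at 60 min (1.40 and 1.53), and Angptl4 furthest left (−1.09).

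The receptor and its chaperones stayed near their 0 min level. Of 9 measured, none reached 1.5-fold at any time, and the medians were 0.08, 0.12, −0.01 and −0.04. Nr3c1, the glucocorticoid receptor, had changes of 0.13, 0.17, 0.24 and −0.32 on its brighter probe and 0.05, −0.06, −0.04 and 0.12 on the other, so that the probes had opposite signs at 30, 45 and 60 min. Among 4 steroid handling partners of Hsd11b1, the medians were −0.01, 0.02, −0.07 and −0.07. H6pd, which supplies the cofactor of Hsd11b1 in the endoplasmic reticulum, had changes of −0.12, −0.61, −0.39 and −0.32, and was the 1 gene past the threshold, at 30 min. None of 6 measured genes of tyrosine and tryptophan breakdown passed it, with medians of −0.03, 0.02, −0.06 and 0.00. None of 7 genes of the urea cycle and glutamine did either, with medians of −0.06, −0.01, 0.06 and 0.11. The 3 measured relatives of Sgk1 and Tsc22d3 had medians of −0.07, 0.04, −0.01 and −0.16, and Tsc22d1 was the 1 past the threshold, at 60 min. Hepatocyte markers had medians of 0.06, 0.08, 0.13 and 0.01, and markers of other liver cells of 0.00, 0.09, 0.00 and −0.13. In that second list 2 of 5 measured genes were 1.5-fold lower at 60 min, against 3.61% of all probes. These were Cdh5 (−0.59) and Kdr (−0.68), endothelial genes, and their part in any result was not tested. Kdr was well above background on only 4 arrays, with levels of −3.2 at 0 min and −3.88 at 60 min. The other Cdh5 probe was well above background on no array.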

How the data were processed

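The files are 5 scanner outputs, 1 per time. Per the file headers, Agilent Feature Extraction 9.5.3.1 subtracted background and detrended each array to give the processed signal, an intensity not normalized between arrays. Flags of the same software mark spots well above background. The deposited series table holds log2 values, centred on each probe's median over the arrays, by comparison with the scanner intensities; the authors' steps for it are not given in the sources used here. No column belonged to another sample.

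Control and outlier spots were left out. Spots of a probe were averaged, each array was divided by its 75th percentile, and log2 was taken (Python 3.11.15). A gene's main probe is the one with the highest mean signal. Array names are of the array's design. The 41012 probes were named by accession (10835) or symbol (8674) in RefSeq, and 21503 kept the name in the file. Trends were fitted with limma 3.58.1 in R 4.3.3 and tested on simulated data. No culture was repeated, so p-values measure only the spread around the line.

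The members and gene lists were chosen with earlier results of these data known. All 9 members, list genes past 1.5-fold, Nr3c1, and the 2 genes most like each member past 1.5-fold are named. Of 54 list entries, 50 matched; Ptges3, Gstz1, Afmid and Tsc22d2 did not. Alternatives covered background, normalization, scaling, the series table, the comparison array, the threshold and leaving out arrays.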

Additional observations from a re-analysis of the deposited data

How the results depend on the processing

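Of 127 alternative values of the medians, counts and trend, 116 stayed close to the reported value, a median by less than the SD of a change from repeated spots and a count within 1.5 times, and 11 did not. With normexp background, which 5 spots of high local background on the 15 min array distort, the 15 min median was −0.65, with 1 member higher and 4 lower. With the 75th percentile of detected probes, 1 member (Lcn2) was lower at 15 min. Against the 15 min array, 1 member (Lcn2) was higher at 30 min. Scaling on added transcripts, chosen after seeing the data, gave 1 member lower at 15 min (Lcn2) and 1 at 45 and 60 min (Tsc22d3), counted on main probes (dimmer Fkbp5 probes passed too, at 30 and 60 min), with medians of −0.27 at 45 min and −0.03 at 60 min. Without the 0 min array, 1 member trend (Lcn2) was called, with 29 of 19746 probes called in all, against 2 with all arrays. Otherwise the adjusted p of Lcn2 in limma lay between 0.108 and 0.817. Of 330 changes of single probes, 287 moved by less than that SD and 43 by more. On the alternative scales 12 of 43 member changes had the other sign, the largest of them 0.21 in size. No paired analysis was possible because each time has 1 array. The limits are 1 array per time, no time-matched cells without insulin, and 60 min on its own slide.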
